A study of Mus with 7 samples.

Results

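Long intergenic non-coding RNAs (lincRNAs) are transcribed from stretches of the genome between protein-coding genes. Most are capped, spliced and polyadenylated like mRNAs, and many were first found as domains of chromatin that carry the histone marks of active promoters and transcribed bodies, which do not show the strand that is transcribed. Several act in the nucleus on chromatin and transcription, and some are needed for the development of the heart. The Agilent mouse lncRNA and mRNA array used here carried 714 probes whose names start with mouselincRNA (639 probes) or MM9LINCRNAEXON (75 probes), among 60641 probes for lncRNAs and mRNAs. They were chosen by the start of the name alone. The files give neither their sequences nor a gene or position for them, so they are named here by their probe names, each of which ends in a + or - sign and a suffix. What the sign marks is not given in the sources used here.

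The arrays measured RNA of heart tissue from male C57BL/6J mice, with 3 samples in the CON group and 4 in the DOX group. Doxorubicin (DOX) is an anthracycline antitumor drug that intercalates into DNA and poisons topoisomerase, and damage to the heart limits its use. DOX was given as a single intraperitoneal injection of 15 mg/kg and CON mice received saline in the same way, with hearts excised on day 3. CON replicates were numbered 1, 2 and 3, and DOX replicates 1, 2, 4 and 5. The tissue holds muscle cells and other cells, so fewer cells of a type and less RNA per cell cannot be told apart. Of 29 marker genes of heart muscle and other cell types that were looked for, 0 were among the 46 genes that the files allow to be named, so the tissue label was not checked. The 3 CON arrays share a scan session and the 4 DOX arrays share a second session, which was 366 days away from the first. Session and treatment cannot be told apart in any difference between the groups.

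The lincRNA probes were detected less widely than the other lncRNA probes of the array. Of the 714 probes, 399 (55.9%) were well above background, by the flag of the scanner software, on all 7 arrays, 199 on some arrays and 116 (16.2%) on none. Among the 37568 other lncRNA probes 79.5% carried the flag on every array and 5.73% on none. The MM9LINCRNAEXON probes were detected more often than the mouselincRNA probes, with 54 of 75 (72.0%) against 345 of 639 (54.0%) on all 7 arrays. The 1092 probes named humanlincRNA on the same array gave 52.9%, close to the share of the mouselincRNA probes. These shares describe the probes and were not compared with a test.

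By array, 502, 514 and 491 of the 714 probes were well above background in the CON group and 460, 503, 517 and 520 in the DOX group. The groups overlapped, and DOX replicate 1 had the fewest. Before normalization the median signal of the probes was 17.9, 21.6 and 20.1 on the CON arrays and 23.6, 27.8, 30.3 and 30.2 on the DOX arrays. Every DOX array was thus brighter than every CON array, as it was for the other lncRNA probes, whose medians were 48.3 to 58.1 in the CON group and 88.1 to 107.4 in the DOX group. No spot of the 714 probes was saturated.

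After log2 transformation and quantile normalization across the 7 arrays, the median signal of the 714 probes was 4.53 over all arrays, with 25% of probes below 3.02 and 25% above 6.05. For the other lncRNA probes the median was 6.26. The array also carried 15 probes named MM9NEGATIVE, printed 3 times each, which give a level for probes with no intended target. Their mean normalized log2 signals per probe lay between 1.13 and 5.51 in the CON group and between 1.25 and 4.27 in the DOX group. Of their 45 spots, 24, 24 and 21 carried the flag on the CON arrays and 9, 10, 11 and 11 on the DOX arrays, so the flag alone does not separate a probe from this level. Of the negative probes, 10 were lower on every DOX array than on every CON array and 2 were higher, with a median log2 difference of -0.83. The 2 higher ones had equal signals on each CON array, and their CON mean of 1.13 was the lowest of the negative probes. Of the 714 lincRNA probes, 226 had a mean above that of every negative probe in both groups.

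A few lincRNA probes were very bright. The probe mouselincRNA0161-_P1V4 had the highest signal, at 15.48, 15.56 and 15.43 on the CON arrays and 15.76, 15.89, 15.61 and 15.86 on the DOX arrays. Its groups did not overlap, but the log2 change was 0.29 (standard error 0.11, limma adjusted p = 0.0449), below 2-fold. The probe mouselincRNA1606-_P1V4 came next and rose from 14.52 ± 0.02 (SD, n = 3) to 15.71 ± 0.11 (SD, n = 4), a 2.28-fold change (limma adjusted p = 4.01e-05). MM9LINCRNAEXON10664+_P1V4 and MM9LINCRNAEXON10490+_P1V4, the next in signal, rose 3.95-fold and 3.23-fold. Signals of different probes depend on their sequences and do not rank the RNAs by abundance.

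To ask which lincRNA probes changed with DOX, limma was run on every lncRNA and mRNA probe that was well above background on 3 or more of the 7 arrays. Changes were adjusted over all of them by the Benjamini-Hochberg method and called at more than 2-fold and an adjusted p under 0.05. Of the 714 probes 539 were tested. Of these, 97 were up-regulated in the DOX group and 30 were down-regulated, while 412 were not called. The groups did not overlap for 285 of the 539 probes (52.9%), against 66.1% of the other lncRNA probes. The called share was 23.6%, against 31.6% of all probes tested and 31.1% of the other lncRNA probes. By direction, 18.0% of the lincRNA probes rose and 5.57% fell past the thresholds, and for the other lncRNA probes the shares were 18.3% and 12.9%. Up-regulated probes made up 76.4% of the called lincRNA probes after quantile normalization, but 24.0% (40 up-regulated and 127 down-regulated) when arrays were scaled to their 75th percentiles. That scaling moved the median log2 change of all tested probes by -0.37. For the other lncRNA probes the share of calls that were up-regulated went from 58.7% to 34.1% (4349 up-regulated and 8421 down-regulated), so this share was higher for the lincRNA probes under quantile normalization and lower under that scaling. It was not particular to them. Under quantile normalization the humanlincRNA probes, counted among the other lncRNA probes, had 75.3% of calls up-regulated and a median log2 change of 0.25. The median change of the lincRNA probes minus that of the other lncRNA probes was 0.17 under quantile normalization and -0.03 under scaling to the 75th percentile, and minus that of all tested probes it was 0.30 and 0.06.

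The filter admits probes through the group in which they are high, so the 399 probes well above background on all 7 arrays are also given, a selection that leaves out probes falling to background in a group. Of these, 53 were up-regulated and 6 down-regulated, or 14.8% in all. Of the other lncRNA probes selected in the same way 16.7% were up-regulated and 10.9% down-regulated, or 27.6% in all. The groups did not overlap for 203 of the 399 probes (50.9%), with DOX higher for 150 and lower for 53. Among the other lncRNA probes the share without overlap was 65.8%, with DOX higher for 10559 and lower for 9090. With scaling to the 75th percentile the counts over the 399 probes were 30 up-regulated and 59 down-regulated. For the 29855 other lncRNA probes selected in the same way, that scaling gave 3920 up-regulated and 6262 down-regulated. The median log2 change of the 399 probes was 0.22 under quantile normalization and -0.29 under that scaling. The direction of the lincRNA probes as a group therefore depended on the scaling.

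The 10 largest rises, unlike the direction of the whole set, were called under both scalings. They were taken from the called probes detected on every array with no overlap between the groups. Under quantile normalization mouselincRNA1592+_P1V4 rose most. The log2 change of mouselincRNA0544-_P1V4 was larger with scaling to the 75th percentile (3.91 against 3.76) and with normexp (3.52 against 3.15). The normalized log2 signal of mouselincRNA1592+_P1V4 was 6.02, 5.91 and 6.19 on the CON arrays and 10.20, 10.58, 10.12 and 9.15 on the DOX arrays. All DOX arrays were far above the CON arrays, with replicate 5 the lowest of them. The log2 change was 3.97 (standard error 0.31, limma adjusted p = 2.58e-05), or 15.7-fold, and 4.26 without DOX replicate 5.

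The probe mouselincRNA0544-_P1V4 rose by nearly as much with less spread, from 7.35, 7.06 and 7.21 to 11.28, 11.12, 10.97 and 11.27. The log2 change was 3.96 (standard error 0.12, limma adjusted p = 1.44e-06), or 15.5-fold. The probe of the preceding number, mouselincRNA0543-_P1V4, was brighter and also rose, from 11.54, 11.47 and 11.12 to 14.15, 13.65, 13.72 and 14.03. This was a 5.68-fold change (limma adjusted p = 1.38e-05). Whether neighbouring numbers mean neighbouring positions in the genome is not given in the sources used here.

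The other probes among the 10 largest rises were mouselincRNA1551-_P1V4, mouselincRNA0435+_P1V4, mouselincRNA1040+_P1V4, mouselincRNA0394+_P1V4, mouselincRNA0706+_P1V4, mouselincRNA1244-_P1V4 and mouselincRNA0725-_P1V4. Their folds ran from 8.03 for mouselincRNA1551-_P1V4 to 5.41 for mouselincRNA0725-_P1V4. In the CON group, mouselincRNA1551-_P1V4, mouselincRNA0435+_P1V4, mouselincRNA1040+_P1V4 and mouselincRNA1244-_P1V4 had means of 3.68 to 4.81, within the range of the negative probes. By their SD, the DOX arrays differed most from each other for mouselincRNA1551-_P1V4 (0.72, as for mouselincRNA0725-_P1V4), at 6.52, 7.21, 5.73 and 7.28 on the DOX arrays against 3.63 to 3.74 on the CON arrays. They differed least for mouselincRNA1040+_P1V4, at 7.33 to 7.50, whose CON arrays were spread from 4.39 to 5.18. Each of the 10 rises was called with scaling to the 75th percentile, where the log2 changes were 1.77 to 3.91, and with the normexp background correction, where they were 1.15 to 3.52. Of all 97 up-regulated probes, 80 had a DOX mean above that of every negative probe, and 27 had both means above it.

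Under quantile normalization falls were fewer and smaller than rises. Both means were above those of every negative probe for 4 of 30 down-regulated probes, against 27 of 97 up-regulated ones. The 6 down-regulated probes detected on every array were mouselincRNA1551+_P1V4, mouselincRNA0086-_P1V4, mouselincRNA0538-_P1V4, MM9LINCRNAEXON11169-_P1V4, mouselincRNA0390+_P1V4 and mouselincRNA1609+_P1V4. The probe mouselincRNA1551+_P1V4 fell most, from 6.59, 6.01 and 6.10 on the CON arrays to 4.30, 4.33, 4.23 and 4.25 on the DOX arrays. The DOX arrays lay close together and well below the CON arrays, with a log2 change of -1.95 (standard error 0.15, limma adjusted p = 2.50e-05).

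The brightest of the falling probes, mouselincRNA0390+_P1V4, went from 10.04, 9.76 and 9.95 to 8.55, 8.63, 8.64 and 8.95. Its log2 change of -1.23 (standard error 0.13, limma adjusted p = 1.22e-04) was past the 2-fold threshold, also with scaling to the 75th percentile (-1.15) and with normexp (-1.10). The smallest of the 6, mouselincRNA1609+_P1V4, had a log2 change of -1.02 and was no longer called without CON replicate 3 (-0.76), without DOX replicate 4 (-0.99) or without DOX replicate 5 (-0.96). With normexp, 4 of the 6 fell short of 2-fold, namely mouselincRNA1551+_P1V4, mouselincRNA0538-_P1V4, MM9LINCRNAEXON11169-_P1V4 and mouselincRNA1609+_P1V4. Of all 30 down-regulated probes, 4 had a CON mean above that of every negative probe, namely mouselincRNA1551+_P1V4, mouselincRNA0086-_P1V4, mouselincRNA0538-_P1V4 and mouselincRNA0390+_P1V4. The highest negative probe had a mean of 5.51 in the CON group and 4.27 in the DOX group. This count and that of the DOX means of up-regulated probes therefore use unlike levels. Most negative probes were also lower on the DOX arrays, as given above, and the part of this difference in the calls was not tested.

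Some lincRNA probes were well above background in a single group. All DOX arrays and no CON array were well above background for 11 probes (1.54%), against 1.20% of the other lncRNA probes, and all CON arrays and no DOX array for 19 (2.66%), against 1.75%. For such probes the fold is a bound, computed from the mean of the brighter group and, on each array of the dimmer group, the higher of the probe's own signal and the lowest signal that was well above background. These probes passed the filter through the brighter group alone, so they had to differ, and the adjusted p of the fit is given as a description. The largest bound belonged to mouselincRNA0435-_P1V4, with 3.03, 2.42 and 1.92 on the CON arrays and 6.83, 7.69, 6.55 and 5.93 on the DOX arrays. Under quantile normalization it was at least 10.6-fold higher in the DOX group (limma adjusted p = 7.45e-05). The probe mouselincRNA0490-_P1V4 was at least 6.83-fold higher, mouselincRNA0909+_P1V4 at least 4.19-fold and mouselincRNA1179+_P1V4 at least 3.97-fold. These bounds hold for quantile normalization alone. With scaling to the 75th percentile the fitted log2 changes, in the same order, were 3.16, 2.48, 1.16 and 1.53, each smaller than its bound, and all 4 probes were called. With normexp, mouselincRNA0435-_P1V4 (log2 change 1.39) was called and these 3 probes, at 0.59 to 0.99, were not.

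In the opposite direction the bounds were smaller under quantile normalization. The largest was that of mouselincRNA0078-_P1V4, at 4.81, 5.02 and 4.86 on the CON arrays and 3.00, 2.79, 1.94 and 3.32 on the DOX arrays, which was at least 2.64-fold lower in the DOX group (limma adjusted p = 4.43e-04). It was followed by mouselincRNA1406-_P1V4, mouselincRNA0231+_P1V4 and mouselincRNA0424+_P1V4, at least 2.35-fold, 2.30-fold and 2.09-fold lower. The CON means of these 4 probes, 4.56 to 4.90, lay within the range of the negative probes on the same arrays. These bounds, too, hold for quantile normalization alone. With scaling to the 75th percentile the fitted log2 changes of these 4 probes, which are no bounds, were -4.27 to -2.80. With normexp none of the 4 reached 2-fold, with log2 changes of -0.54 to -0.35.

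Most of the probes come in pairs that share a name and number and differ in the sign. The 714 probes bear 397 different numbers, with 317 pairs (307 of mouselincRNA and 10 of MM9LINCRNAEXON) and 80 probes without a partner. Both probes were well above background on all 7 arrays in 89 pairs, a single probe in 170 and neither in 58. In 64 pairs one probe was well above background on all 7 arrays and its partner on none. Of the probes with +, 57.7% carried the flag on every array and 24.0% of those tested were called, and of the probes with - the shares were 53.9% and 23.1%. The median log2 change of the tested probes was 0.17 for + and 0.31 for -, a difference that was not tested.

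The changes of the paired probes bore little relation to each other. Both probes were tested in 179 pairs, and their log2 changes had the same direction in 95 of these. Across these pairs Pearson's r of the log2 changes was 0.03 and Spearman's rho -0.02, a description over pairs measured on the same 7 arrays. Both probes were up-regulated in 5 pairs and both down-regulated in 1. The probes were called in opposite directions in 5 pairs, a single probe was called in 70 and neither in 98. In the 89 pairs with both probes well above background on all 7 arrays, r was -0.11 and the direction was shared in 47.

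Among these 89 pairs the largest difference under quantile normalization was that of mouselincRNA1551, whose - probe had a CON mean (3.68) within the range of the negative probes. The log2 change was -1.95 for the + probe and 3.01 for the - probe, a difference (+ minus -) of -4.96. After scaling to the 75th percentile they were -2.61 and 2.16, and with normexp -0.86 and 1.21. With normexp the probes of mouselincRNA0544 (-0.0084 and 3.52), mouselincRNA1592 (3.15 and 0.23) and mouselincRNA0772 (-0.27 and 2.01) lay farther apart than these. The pair of mouselincRNA0544 came next under quantile normalization. While its - probe rose 15.5-fold, its + probe was at 7.46, 7.65 and 7.36 on the CON arrays and 7.35, 7.30, 7.40 and 7.30 on the DOX arrays, a log2 change of -0.15 (standard error 0.11, limma adjusted p = 0.228).

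The same held for mouselincRNA0543, whose + probe, named because of its neighbour and after its values were seen, had a log2 change of -0.08 (standard error 0.12). In the pair mouselincRNA1592 the + probe rose by 3.97 and the - probe had a log2 change of 0.63 (limma adjusted p = 0.00978), which was below 2-fold and was -0.04 with scaling to the 75th percentile. In the pair mouselincRNA0772 the - probe rose from 10.39, 9.20 and 10.28 to 12.13, 12.70, 12.01 and 11.31, a log2 change of 2.08 (standard error 0.38). Its + probe had a log2 change of -0.82 and was lower on every DOX array than on every CON array, short of 2-fold here and past it with scaling to the 75th percentile (-1.69). Both its means lay within the range of the negative probes, whose median difference of -0.83 was as large, and with normexp its log2 change was -0.27. These 4 pairs, without mouselincRNA0543, were chosen for the size of the difference among the pairs with both probes well above background on every array, and the difference is therefore a description.

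Pairs that moved together also occurred, and are named here after their values were seen. Both probes were up-regulated for mouselincRNA0394, mouselincRNA0435, mouselincRNA1052, mouselincRNA1256 and mouselincRNA1606, and both were down-regulated for mouselincRNA1155. In mouselincRNA0435 both probes were higher on every DOX array than on every CON array, and their fitted log2 changes with scaling to the 75th percentile were 2.29 for + and 3.16 for -. In mouselincRNA1155 the + probe was well above background on no DOX array and was at least 1.73-fold lower. The - probe, with 1 DOX array well above background, had a fitted log2 change of -2.83, which is neither a bound nor an exact size. The CON means of this last pair, 4.29 and 4.02, lay within the range of the negative probes, and DOX replicate 4 was left out of the fit for its - probe because the spot was uneven.

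Among the 75 MM9LINCRNAEXON probes 64 were tested, and 11 were up-regulated and 2 down-regulated (20.3%, against 31.6% of all probes tested). The groups did not overlap for 25 of the 64 (39.1%), against 54.7% of the 475 mouselincRNA probes and 67.4% of all probes tested. The 4 with the largest fitted rises, the first of them against CON arrays that were not well above background, were MM9LINCRNAEXON11285-_P1V4, MM9LINCRNAEXON10569-_P1V4, MM9LINCRNAEXON11382+_P1V4 and MM9LINCRNAEXON11125+_P1V4. Of these, MM9LINCRNAEXON10569-_P1V4 went from 7.30, 6.96 and 7.41 on the CON arrays to 9.74, 9.99, 9.57 and 9.28 on the DOX arrays, a 5.35-fold rise (limma adjusted p = 2.79e-05). MM9LINCRNAEXON11382+_P1V4 went from 5.09, 4.84 and 4.82 to 7.28, 7.26, 7.09 and 7.48, a log2 change of 2.36 that was 1.83 with scaling to the 75th percentile and 1.31 with normexp. Its CON mean of 4.92 lay within the range of the negative probes. Both had DOX arrays far above every CON array.

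The CON arrays of MM9LINCRNAEXON11285-_P1V4 were not well above background, and its DOX arrays spread from 3.96 to 5.95, which was at least 2.92-fold higher. MM9LINCRNAEXON11125+_P1V4 was bright and variable, at 10.48, 10.70 and 9.56 on the CON arrays and 12.40, 13.08, 11.95 and 11.88 on the DOX arrays. Its arrays stood in the same order within each group as those of mouselincRNA0725-_P1V4, at 8.83, 9.08 and 8.08 and at 11.25, 12.04, 10.70 and 10.41, a likeness seen in the values and not tested. The DOX order was not particular to them. It was also that of mouselincRNA1592+_P1V4, mouselincRNA0435-_P1V4, mouselincRNA1244-_P1V4, mouselincRNA0772-_P1V4 and MM9LINCRNAEXON10569-_P1V4, whose CON arrays stood in other orders. The remaining rises, besides the 2 bright probes above, were those of MM9LINCRNAEXON11626+_P1V4, MM9LINCRNAEXON11014+_P1V4, MM9LINCRNAEXON11661-_P1V4, MM9LINCRNAEXON11009-_P1V4 and MM9LINCRNAEXON11712-_P1V4. The first 2 of these had no CON array well above background and were at least 1.32-fold and 1.5-fold higher in the DOX group, and the other 3 had log2 changes of 1.12 to 1.46. With scaling to the 75th percentile none of these 5 was called, with fitted log2 changes of -0.02 to 0.72, nor was MM9LINCRNAEXON11285-_P1V4 (1.03). With normexp, too, none of these 5 and not MM9LINCRNAEXON11285-_P1V4 reached 2-fold, at log2 changes of 0.21 to 0.65. The calls of MM9LINCRNAEXON11014+_P1V4 and MM9LINCRNAEXON11009-_P1V4, whose groups overlapped, depended on single arrays, being lost when any of 5 arrays was left out for the first and any of 6 for the second.

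Of the 2 falls, MM9LINCRNAEXON11169-_P1V4 went from 5.32, 4.95 and 5.06 on the CON arrays to 3.90, 4.03, 3.62 and 3.81 on the DOX arrays. MM9LINCRNAEXON11727+_P1V4 went from 4.15, 4.27 and 4.71 to 1.30, 1.13, 1.14 and 1.14, where no DOX array was well above background, and was at least 1.84-fold lower, having passed the filter through the CON arrays alone. In both the groups stood apart, and all CON arrays lay within the range of the negative probes. With normexp neither reached 2-fold, with log2 changes of -0.35 for MM9LINCRNAEXON11169-_P1V4 and -0.45 for MM9LINCRNAEXON11727+_P1V4.

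The calls are also given by the brightness of the probes. Among tested lincRNA probes with a mean normalized log2 signal of up to 4, 26 of 119 were up-regulated and 20 down-regulated. Between 4 and 6 the numbers were 41 and 8 of 236, between 6 and 8 they were 14 and 1 of 123, and above 8 they were 16 and 1 of 61. These are up-regulated shares of 21.8%, 17.4%, 11.4% and 26.2%, near those of the other lncRNA probes in the same classes, at 22.1%, 14.8%, 14.9% and 24.9%. Among the lincRNA probes, 20 of the 30 that were down-regulated were in the dimmest of these classes. The classes use the mean over all 7 arrays, so a fall itself moves a probe to a dimmer class, and nothing is read from this split. In the other lncRNA probes, 25.7% of the dimmest class were down-regulated, and 9.62% to 14.7% of the brighter classes. The humanlincRNA probes gave 27.3%, 3.07%, 1.14% and 0% in the same order, with 0 of 87 above 8, and 177 up-regulated and 58 down-regulated of 785 tested (29.9% called). The limit on the classes holds for these probes as well.

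Within the groups the arrays agreed closely for most lincRNA probes. Over the 399 probes well above background on all 7 arrays the median SD was 0.19 in the CON group and 0.17 in the DOX group, against 0.14 and 0.18 for the other lncRNA probes. The widest spread was found for mouselincRNA0917-_P1V4 in the CON group, at 4.96, 6.89 and 4.62, with all DOX arrays between 4.45 and 4.76. In the DOX group it was found for MM9LINCRNAEXON10136+_P1V4, at 5.55, 6.45, 5.63 and 7.36, with CON arrays between 5.78 and 6.01. The DOX arrays of mouselincRNA0861-_P1V4 lay in 2 pairs, with replicates 2 and 4 at 7.95 and 7.88 and replicates 1 and 5 at 6.53 and 6.50. None of these 3 probes was called, with log2 changes of -0.87, 0.37 and 0.79 and adjusted p of 0.148, 0.458 and 0.126 from limma. With scaling to the 75th percentile mouselincRNA0917-_P1V4 was called (-1.63), as was mouselincRNA0567-_P1V4 (-1.13), another probe with widely spread CON arrays. The log2 change of mouselincRNA0917-_P1V4 rested on CON replicate 2, being -0.17 without that array and -1.31 without CON replicate 3.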

How the data were processed

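For each array the authors deposited intensity values and spot flags from the scanner software (Agilent Feature Extraction, version 11.0.1.1 per the submitters' notes), background-subtracted within the array and not normalized between arrays. They also deposited log2 values of 60641 probes, made in GeneSpring by quantile normalization per the sample sheet. Its columns correlated with the log2 processed signals at 0.996 to 0.997 across probes. Scale and direction are thus known, and the values were not centred. According to the sample sheet, rRNA was removed and RNA was labelled by random priming.

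For the values given here, the log2 processed signal of the 61537 spots that are not controls was quantile-normalized across the 7 arrays, as in the sample sheet. Spots marked as uneven were left out (3 of the lincRNA probes lost a value on 1 array). The 55492 probes that passed the filter (well above background on 3 or more arrays) entered a limma fit of DOX against CON with no covariate (lmFit and eBayes, limma 3.58.1, R 4.3.3). Fold change over 2 and adjusted p under 0.05 follow the paper's methods. The adjustment ran over all tested probes. Probes whose names start with ASMM10AP1B were taken as mRNA and all others as lncRNA, a division that was chosen in earlier work because it matched the paper's counts.

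The probes, lists and tests were chosen with earlier results of these data known. Named are the 10 largest rises and falls of called probes detected on every array without overlap, the 4 largest bounds in each direction, the 4 brightest probes, the called MM9LINCRNAEXON probes (4 in each direction in full), and, among probes detected on every array, the 3 widest SDs in each group and the 4 pairs that differ most. Lists of 15 markers of heart muscle and 14 of other cells were looked for among 50 probes with accessions through a RefSeq gene table (GRCm38.p6, names only). The labels do not say that samples are separate animals, so p-values measure the spread between these samples. No arrays of a group were copies (SD of log2 differences 0.358 to 0.598). Calling was checked on simulated data. Tried as alternatives were 75th percentile scaling, normexp (offset 50), other filters, the methods' t-test, a test against a 2-fold change, adjustment within lncRNAs, the authors' values, a replicate block and leaving out each array. Tables were made with pandas 2.3.3 in Python 3.11.15. The number of arrays limits the precision.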

Additional observations from a re-analysis of the deposited data

Results flagged for a closer look

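In the DOX group, 47 named probes and 16 measures of the arrays were examined for a single array far from the other 3, by the gap to its neighbour over the range of the group. Chance marks about 5% of groups, and 2 probes were marked. For MM9LINCRNAEXON11014+_P1V4, the array far from the rest was DOX replicate 4, with a normalized log2 signal of 2.32, and the remaining 3 ran from 4.35 to 4.53. The CON arrays did not carry the flag for signals well above background here, so the fold is a bound (at least 1.5-fold higher in the DOX group). The fitted log2 change, which is no bound, was 1.54 over all arrays, and leaving that array out made it 2.07. For MM9LINCRNAEXON11727+_P1V4, it was DOX replicate 1, with 1.30, and the rest ran from 1.13 to 1.14. On DOX replicate 1 the same value was held by mouselincRNA1406-_P1V4 and by the negative probes MM9NEGATIVE004, MM9NEGATIVE005 and MM9NEGATIVE012, so it is not particular to this probe. None of these arrays was well above background for this probe, and the fitted log2 change was -3.20 with all arrays and -3.24 without that array.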

How the results depend on the processing

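With the methods' t-test, the adjustment within lncRNAs, the authors' values and the replicate block, the counts of calls stayed within 1.5 times 97 up-regulated and 30 down-regulated lincRNA probes and 6205 and 4365 other lncRNA probes. The changes under the replicate block rest on the replicate numbers that both groups share, as given below. The planned normexp on mean signals was not run, since the files used here hold median signals. Normexp on these and the restriction to probes above every negative probe were chosen after seeing the data. Scaling to the 75th percentile gave 40 and 127 lincRNA probes and 8421 down-regulated other lncRNA probes, with median log2 changes of -0.39 for lincRNA probes and -0.36 for the others. Normexp gave 32 and 2 lincRNA probes and 3406 and 1715 others, with medians of 0.079 and 0.024. Its offset shrinks the changes of dim probes by construction. The test against a 2-fold change, stricter by construction, gave 40 and 15 lincRNA probes and 3140 and 1685 others. Without a filter, 58 lincRNA probes were down-regulated and the median was 0.16 (0.23 with it). Requiring all 7 arrays gave 53 and 6. Restricting the probes to those above every negative probe in both groups gave 27 and 4 lincRNA probes (13.7% of 226) and 3488 up-regulated others (28.5% called), with medians of 0.15 and -0.042. Beyond the fewer probes tested, the causes were not tested.

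With each array left out in turn, 96 to 101 lincRNA probes rose and 28 to 37 fell past the thresholds, with 6034 to 6300 and 4278 to 4407 of the others, and medians of 0.20 to 0.24 and 0.036 to 0.059. The share of lincRNA probes well above background on all arrays was 55.9% and became 55.9% to 57.4%. With the less strict flag for signals above background it was 79.7%, by construction. The groups share replicate numbers 1 and 2, whose arrays deviated together with correlations of 0.03 and 0.004, so they share only a number. The replicate block gave 106 and 36 lincRNA probes, and among the 47 named probes mouselincRNA1609+_P1V4 was no longer called. In that fit CON replicate 3 and DOX replicates 4 and 5 have no partner of the same number. Its changes therefore rest on replicates 1 and 2 of each group and do not use all arrays.

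Of the named probes, 4 reversed with scaling to the 75th percentile, namely MM9LINCRNAEXON11626+_P1V4 (-0.016), MM9LINCRNAEXON10136+_P1V4 (-0.10), MM9LINCRNAEXON10106+_P1V4 (-0.52) and mouselincRNA1592-_P1V4 (-0.037), and MM9LINCRNAEXON10136+_P1V4 also without DOX replicate 5 (-0.0043). The log2 change of this probe ran from -0.0043 to 0.60 with an array left out. Among the named probes with an array left out, 311 values kept their direction and their side of the thresholds and 18 did not. Of these, mouselincRNA0861-_P1V4 was called without DOX replicate 5 (1.03) and mouselincRNA0567-_P1V4 without CON replicate 1 (-1.07), MM9LINCRNAEXON11009-_P1V4 (1.21) kept its call with an array left out only where that was CON replicate 3, and came to 0.76 without CON replicate 1, MM9LINCRNAEXON11014+_P1V4 (1.54) was not called without CON replicate 2 or 3 or DOX replicate 1, 2 or 5, and MM9LINCRNAEXON11712-_P1V4 not without DOX replicate 2. The rest concern mouselincRNA1609+_P1V4 and MM9LINCRNAEXON10136+_P1V4.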
